A study of Mus musculus with 4 samples.

Results

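The deposited annotation of the mouse retina held 36426 transcript models, and 2323 of them had exactly 1 exon and a gene name that was a chromosome and a position instead of an Ensembl gene. Members were chosen by these 2 features of name and structure alone. The table of counts listed 44325 isoforms, 3622 of them named by position, and 849 of those had no model, so their exon number was not analysed here. Models and rod counts went together in all cases: every isoform with a model had rod counts, and no isoform without one did. Every member therefore has rod counts by construction.

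The counts came from 4 single-cell libraries of retina from male wild-type C57BL6/J mice, sequenced as nanopore long reads from 10x Genomics cDNA. Of these, 2 had no enrichment, with an age of postnatal day 40 given for 1 of them, 1 had CD73 enrichment at postnatal week 8, and 1 had CD90.2 enrichment at postnatal month 4. CD73 marks photoreceptors and CD90.2 neurons; the protocol describes removal of CD73-positive cells, whereas the design text names fluorescence sorting. The table gives 6 pooled columns, for rods, ganglion cells, cones, amacrine cells, Müller glia and bipolar cells, with no library named. A class is therefore 1 sample, no value has a replicate, and differences between columns were described by size, with no test and with exact 95% intervals that cover counting error only. In pooled columns, many cells with few counts and few cells with many counts cannot be told apart.

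A long read that aligns to the genome as 1 block carries no splice junction, so its strand and its gene have to come from elsewhere than its introns. Such models can be transcripts of genes without introns, unspliced or partly spliced transcripts of genes with introns, pieces of a long exon, or reads of a spliced transcript placed on a processed copy of the gene. Most polyadenylated transcripts carry the hexamer AATAAA or ATTAAA shortly before the cleavage site. The libraries were primed with oligo(dT), which anneals to poly(A) tails and also to runs of A inside a transcript.

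The last 30 bases of some members show what their 3′ ends look like. The sequences are those of the GENCODE M21 transcripts over these GRCm38 positions, 5′ to 3′ on the strand of the model, and capitals mark the hexamers AATAAA or ATTAAA and runs of 6 or more A. The first 7 end away from any annotated transcript end and the last 4 exactly at one. They were chosen to show each kind of end, so they do not stand for the shares of each kind, which are given further on.
Tmcc1, chr6:116173631-116173660, minus strand: ctcctccgtcggaccgtgattcaaactgcc
Nsmce3, chr7:64871702-64871731, minus strand: ataaaagtctttttaaaattgaaAATAAAa
Malat1, chr19:5800529-5800558, minus strand: aggcagatgactcaagggaaccagAAAAAA
Tra2a, chr6:49262929-49262958, minus strand: gcctcagttttcAAAAAAgaaaagAAAAAA
Atxn7l3b, chr10:112928246-112928275, minus strand: cttagcATTAAAatacAAAAAAAAAAAAAA
Fosb, chr7:19308949-19308978, minus strand: gcaagtaggggaagaaaaagaaacAAAAAA
Rbpms, chr8:33928140-33928169, minus strand: accAAAAAAAAAAAAAAAAAAAAAAAAAAA
Malat1, chr19:5799000-5799029, minus strand: aaaagcagaatagaaatgaagtgaaaatgc
Cited2, chr10:17725645-17725674, plus strand: ttaagaAATAAActtgttttctaaaagtca
Bhlhe22, chr3:18057488-18057517, plus strand: tctttATTAAAatattttgatcaaacattt
Erich3, chr3:154767760-154767789, plus strand: acaccAATAAAattatgctgagcaaaactg
Of the ends away from annotated ones, those of Malat1, Tra2a, Atxn7l3b, Fosb and Rbpms close on A encoded in the transcript, that of Nsmce3 has a hexamer and no run, and that of Tmcc1 has neither. The Tmcc1 member matches the mRNA of another gene on the opposite strand, as given further on. Its printed bases, read on the deposited strand, therefore lie at the 5′ side of that mRNA. Of the annotated ends, those of Cited2, Bhlhe22 and Erich3 carry a hexamer and no run, and that of Malat1 has neither.

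Members held 1079189 of the 149645836 counts in the table, or 0.721%. Their counts were concentrated: the 10 largest held 58.4% and the single largest 21.4%. The median member had 41 counts (interquartile range 18 to 111.5), the range was 6 to 230802, and 1683 of the 2323 (72.4%) were under 100 counts. Another 86 had 1000 counts or more. The 450 spliced models named by position had a median of 28 counts, the 586 single-exon models of Ensembl genes 81.5 and the 33067 spliced models of Ensembl genes 90.

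The median member was 1494 bases long (interquartile range 891 to 2300, from 112 to 4964). Spliced models named by position had a median of 845 bases, single-exon models of Ensembl genes 2282.5 and spliced models of Ensembl genes 1778. Members were thus longer than the spliced models that share their kind of name and shorter than the single-exon models that carry a gene name. The longest was a 4964-base member of Rncr4, a retinal noncoding RNA transcribed opposite a microRNA cluster (chromosome 6, 30172893 to 30177856), with 178 of its 182 counts in rods. The other long ones, from Sft2d3 (4432 bases) and Pcdhb21 (4366 bases), had 9 and 7 counts.

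**Figure D1:**
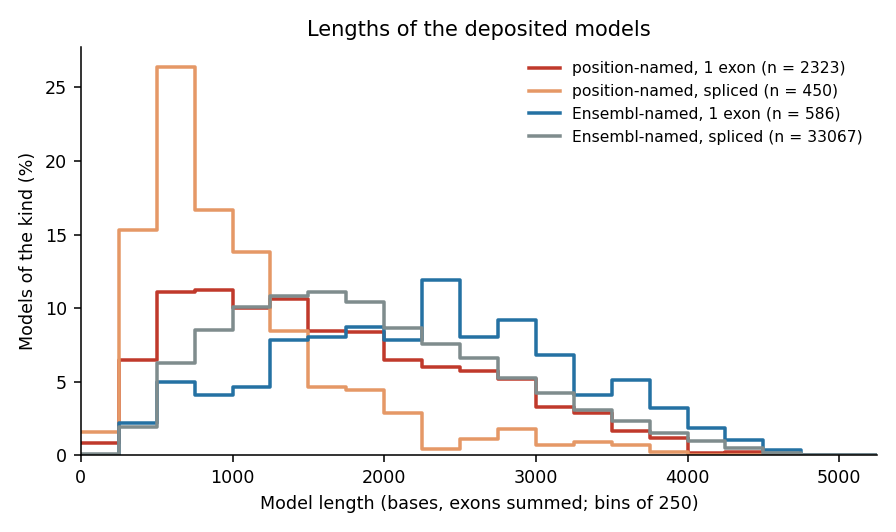
Length of the deposited models in bins of 250 bases (x axis), as a percent of the models of each kind (y axis). Members (red) have a median of 1494 bases, between the spliced position-named models at 845 and the Ensembl-named single-exon models at 2282.5.

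Although none carried a gene name, all 2323 members overlapped an exon of a GENCODE M21 gene on their deposited strand. How the deposited models were filtered is not given, so this overlap is not read as a trait of members. The members fell in 1283 genes, 745 of which had 1 member and 260 had 3 or more, with up to 15 in 1 gene. Protein-coding genes held 2062 members, genes of the class TEC, which await experimental evidence, 120, processed pseudogenes 44, antisense RNA genes 32 and long intergenic noncoding RNA genes 19. The position names were no guide to independent loci: 2091 names reduced to 1668 loci when overlapping members on a strand were merged. Members were spread evenly over the strands, 1182 on plus and 1141 on minus.

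Genes without introns formed 1 part of the set. In M21, 368 of the 1283 genes had single-exon transcripts only, and they held 578 members. For 306 of these 368 the table had no isoform under the Ensembl name, against 65 of the 915 genes with introns. In all, 603 members lay in 371 genes that the table does not list by name, and these members held 575843 counts. Bhlhe22, Fzd10, Nsmce3, Sdhaf1 and Kcnq1ot1 were among these 371 genes, and all their counts stand under position names.

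Most members were placed in exons of noncoding transcripts or in no exon. Each member was placed by the category that held the largest number of its bases, which need not be a majority. By this rule 966 (41.6%) lay in exons of noncoding transcripts, 858 (36.9%) in no exon, 305 (13.1%) in 3′ UTRs, 158 (6.80%) in coding sequence and 36 (1.55%) in 5′ UTRs. Of the 966, 854 (88.4%) belonged to protein-coding genes, and 916 members of the whole set (39.4%) lay by at least 50% of their bases in exons of transcripts that M21 types as retained introns. Of the 858 placed in no exon, 738 (86%) had more bases in introns than outside genes and 120 (14%) did not. Introns held 31.2% of all member bases and sequence outside genes 4.34%. Wholly inside 1 annotated exon lay 805 members. No other kind of model is set beside these shares, so they are not read as particular to members.

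Against the deposited models themselves, 1029 members (44.3%) overlapped an exon of an Ensembl-named model on the same strand and 1618 (69.7%) lay in the span of such a gene, exons and introns together. The remaining 705 were in no span: the nearest gene on the strand ended before 415 of them and started after 290, at a median distance of 28220 bases, with 130 within 5000 bases. Of all 2323 members, 82 (3.53%) lay in the span of a deposited gene of the other strand.

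The 3′ ends of members differed from those of other models. An annotated M21 transcript end lay within 20 bases for 360 members (15.5%, 14 to 17%), against 54.7% of spliced position-named models, 52.6% of single-exon Ensembl-named models and 62.9% of spliced Ensembl-named models. The median distance was 839 bases. Starts behaved alike, with 15.6% of members within 50 bases of an annotated start against 80.5% of spliced Ensembl-named models, and 20 members (0.861%) had both.

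Sequence before the end could be read only where an M21 exon covers it, which was the case for 1403 members (60.4%), so these values do not stand for all members. Among the 1403, a hexamer lay in the last 50 bases of 429 (30.6%, 28.2 to 33.1%), against 62% of spliced position-named, 57.3% of single-exon Ensembl-named and 69% of spliced Ensembl-named models, and 3.50% of all windows of that length in M21 transcripts. At annotated ends 150 of 234 members (64.1%) had it, and elsewhere 279 of 1169 (23.9%). The search used the letters AATAAA and ATTAAA on the model's strand only.

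Runs of A had the opposite pattern. At least 6 A in a row lay in the last 20 bases of 480 of the 1403 members (34.2%, 31.7 to 36.8%), against 12.9% of spliced position-named, 26.7% of single-exon Ensembl-named and 12.1% of spliced Ensembl-named models, and 0.764% of 20-base windows of M21 transcripts. Away from annotated ends the share was 38.1% of 1169 members (35.3 to 40.9%), and at annotated ends 15.0% of 234 (10.6 to 20.2%). In single-exon Ensembl-named models these shares were 45.6% (35 to 56.4%) and 18.2% (13.1 to 24.3%), and in spliced Ensembl-named models 27.3% and 6.73%. Runs were thus more common at unannotated ends in each of these kinds, and the intervals of members overlapped those of the single-exon Ensembl-named models. A hexamer and a run occurred together in 118 members, and 612 (43.6%) had neither. The share with a run was 33.5% among members later called restricted to 1 class and 35.9% among the others tested.

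In the 20 bases just after the end, none of the 16722 models of any kind with readable sequence had more than 11 A. Among 20-base windows in M21 transcripts, 1.07% had 12 or more. The stop at 11 was common to every kind of model, so the 0 among 1265 members is no trait of theirs. Exactly 11 A followed 61 of the 1265 members (4.82%), beside 3.32% of all models and 1.27% of M21 windows. The part that priming on A runs had in these ends was not tested.

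Single-exon alignments to processed copies were looked for by aligning members to all M21 transcripts. Of 2070 members with at least 200 bases inside 1 M21 exon, 43 (2.08%) matched another gene elsewhere at 95% identity or more over at least 80% of that stretch. These 43 held 295038 counts, 27.3% of all member counts. In 20 of them, with 290187 counts, the match ran across exon junctions of the other gene, and 11 lay in histone genes, a family of near-identical single-exon genes, with 2834 counts. Counts at such members are uncertain, since reads of 1 copy can be placed on the other.

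The member with the most counts was of this kind. It lies on chromosome 6, 116173631 to 116174514, deposited on the minus strand, where 683 of its 884 bases fall in an exon of a noncoding transcript of Tmcc1, a gene for a membrane protein of the endoplasmic reticulum. Over 682 bases it matched the mRNA of H2afz, which encodes the histone variant H2A.Z, with 1 mismatch (G115A, the mRNA base first, counted from 1 at the 5′ end of the mRNA) and across all 4 exon junctions of the transcript. The match ran opposite to the deposited strand, as in 2 of the 43 members. Windows over 3 of the junctions, with capitals for the bases on both sides of it, are the same in the mRNA and on the plus strand at the locus.
Junction 1, chr6:116173725-116173754: gcacggtccgagatGGctggcggtaaggct
Junction 2, chr6:116173803-116173832: cgagccggcttgcaGTtccctgtgggccgt
Junction 3, chr6:116173917-116173946: tacctcaccgcagaGGtacttgagttggca
The locus had 35260 counts in rods, 8388 in ganglion cells, 6622 in cones, 120898 in amacrine cells, 6847 in Müller glia and 52787 in bipolar cells. Isoforms named H2afz had 1717, 659, 273, 7624, 336 and 2934 in the same order. The locus thus held from 92.7% (ganglion cells) to 96% (cones) of the counts of both, a share that was high in every column.

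Other members repeated this in the sense direction. A 1390-base member in the 3′ UTR of Olfr482, an olfactory receptor gene (chromosome 7, 108093190 to 108094579, minus strand), had 49993 counts and matched Ramac, an activator of the mRNA cap methyltransferase, at 98.8% identity across 2 junctions. A 1362-base member of Amd2 (chromosome 10, 35710531 to 35711892, minus strand) had 8489 counts and matched Amd1, the S-adenosylmethionine decarboxylase of polyamine synthesis, at 99.6% identity across 7 junctions. The table had no isoform under the Ensembl identifier of Ramac and 290 counts for Amd1. Where the other gene was listed, the member usually held little: 230 counts for the Rbm8a2 member beside 63209 for Rbm8a, and 168 for the Gm15920 member, all in rods, beside 161303 for Ndufa12.

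**Figure D2:**
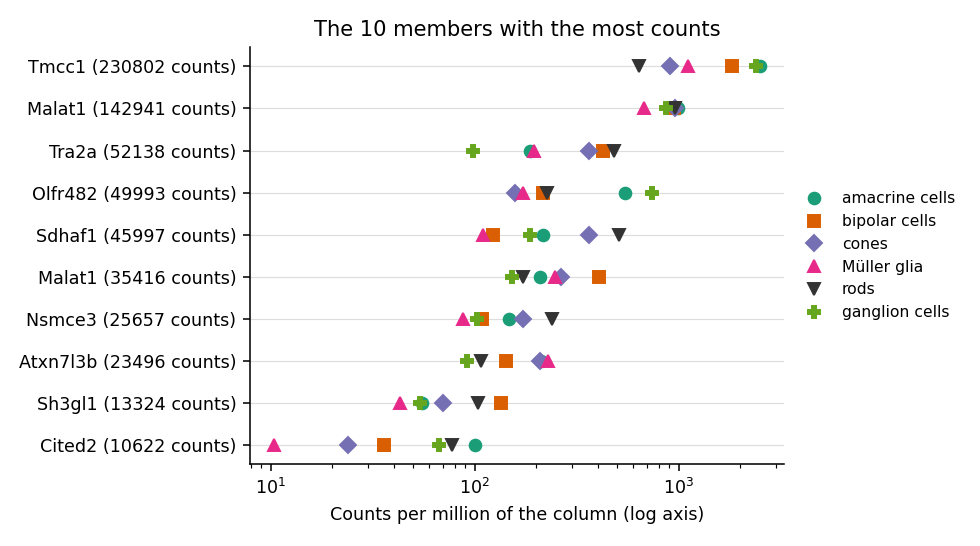
The 10 members with the most counts (rows), with the CPM of each class column on a log axis and a symbol per class. The Malat1 member of 142941 counts spans 673 to 994, the narrowest spread, and the Cited2 member 10.4 to 100.

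The largest members had counts in all 6 columns. Malat1, an abundant nuclear long noncoding RNA, had 2. The member at the 5′ end of the gene (chromosome 19, 5800529 to 5802671) had 961 CPM (counts scaled to a column total of 1000000) in rods, 870 in ganglion cells, 954 in cones, 994 in amacrine cells, 673 in Müller glia and 951 in bipolar cells, the most even profile of the 10. The other member (5799000 to 5800466) ends at an annotated transcript end, which need not be the 3′ end of the gene. It had 172, 153, 266, 210, 247 and 406 CPM in the same order and was highest in bipolar cells. The isoform listed as Malat1 had 7014 counts, against 142941 and 35416 for these members.

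Tra2a, a splicing factor of the SR-like family, also had 2 members. The larger starts at an annotated start and lies mostly in exons of noncoding transcripts (chromosome 6, 49262929 to 49264033), with 480 CPM in rods, 425 in bipolar cells and 363 in cones, but only 98 in ganglion cells, 187 in amacrine cells and 196 in Müller glia. Its 52138 counts compare with 10435 for both isoforms listed as Tra2a, which were highest in bipolar cells (110 CPM). The smaller (49261051 to 49262826) had 4687 counts and from 13.7 CPM in Müller glia to 39.7 in amacrine cells.

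Sdhaf1, an assembly factor of succinate dehydrogenase, is covered by a member on chromosome 7 (30321406 to 30322359) with 507 CPM in rods, 363 in cones and from 110 to 215 in the other 4 columns. Nsmce3, a subunit of the SMC5/6 complex, had 239 CPM in rods and from 87.9 to 172 elsewhere (chromosome 7, 64871702 to 64872997). Both were highest in rods. Atxn7l3b (chromosome 10, 112928246 to 112929164) was highest in Müller glia at 229 CPM and lowest in ganglion cells at 92. Its 211 CPM in amacrine cells and 210 in cones lay just under the interval of the Müller glia value (217 to 241).

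Sh3gl1, an endophilin of membrane traffic, had a member that starts at the annotated start (chromosome 17, 56036066 to 56036635) with 135 CPM in bipolar cells, 104 in rods and 43 in Müller glia. The member of Cited2, a transcriptional coregulator, covers its 3′ UTR up to the annotated end (chromosome 10, 17724713 to 17725674), with 100 CPM in amacrine cells, 77.1 in rods, 67.2 in ganglion cells, 36 in bipolar cells, 23.9 in cones and 10.4 in Müller glia. The isoform listed as Cited2 had 3304 counts and was highest in rods (39.5 CPM), so the 2 differ in their highest column.

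Members took 0.817% of the counts of amacrine cells (0.815 to 0.820%), 0.767% of bipolar cells, 0.662% of rods, 0.636% of ganglion cells, 0.597% of cones and 0.480% of Müller glia. Without the 10 largest these shares were 0.300%, 0.331%, 0.311%, 0.160%, 0.248% and 0.192%, so ganglion cells then had the lowest share instead of Müller glia. At least 1 count was found for 2018 members in bipolar cells, 1567 in amacrine cells, 1160 in cones, 1015 in Müller glia and, fewest, 359 in ganglion cells. With every column thinned to the 3509890 counts of ganglion cells, the numbers were 1367, 1088, 941 and 868 in the first 4, 1291 in rods and 359 in ganglion cells. At full depth 212 members were seen in all 6 classes and 112 in rods alone. Since every model has rod counts, a member seen in 1 class can only be seen in rods. The like numbers for all models are not given here, so these numbers do not tell members from other models.

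A member was called class-restricted where 1 column held 80% or more of its summed CPM, among members of 10 counts or more. Of 2115 with enough counts, 365 were (17.3%, 15.7 to 18.9%), beside 19.2% of all models and 27% of all isoforms in the table. Rods had 129 of them, bipolar cells 69, amacrine cells 68, Müller glia 59, ganglion cells 23 and cones 17. As percents of the members tested these were 6.1%, 3.26%, 3.22%, 2.79%, 1.09% and 0.804%, beside 7.97%, 2.11%, 3.01%, 3.91%, 1.21% and 1.02% of all models and 6.74%, 2.96%, 10.3%, 3.93%, 2.01% and 1.04% of all isoforms of the table, which unlike members need no rod count. The shares lay near those of all models in each class, with bipolar cells above it and rods and Müller glia below. With the columns thinned to equal depth the count was 104, with 31 in Müller glia, 26 in ganglion cells, 16 in bipolar cells, 15 in amacrine cells, 10 in rods and 5 in cones, so rods no longer had the most. Thinning also leaves fewer members past the minimum of 10 counts, and at full depth with a minimum of 50 counts rods had 20 and amacrine cells 26. By kind, 30.7% of spliced position-named and 14.4% of single-exon Ensembl-named models were restricted.

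**Figure D3:**
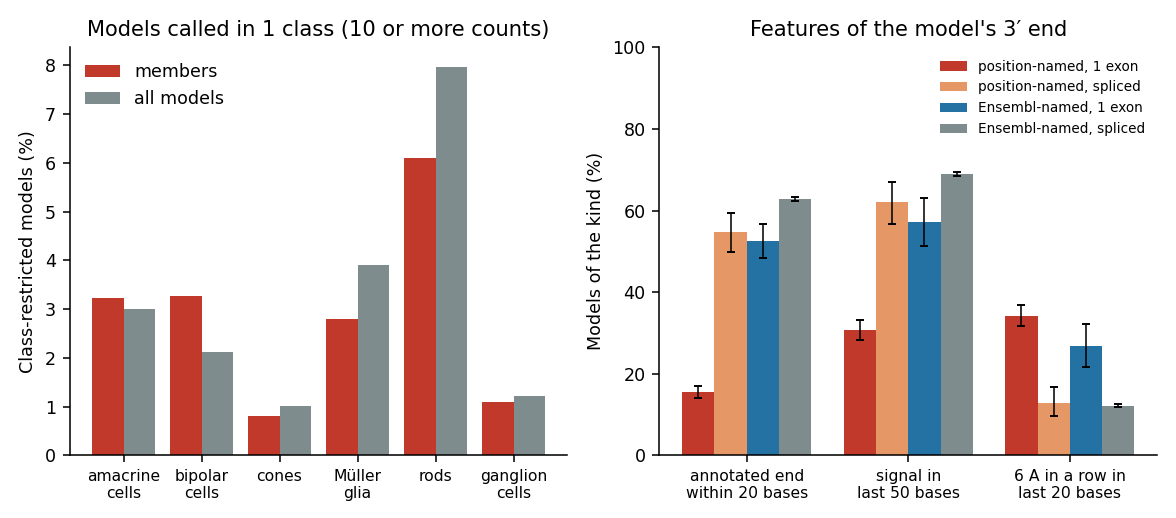
Left, percent of models with 10 or more counts that were restricted to each class, for members (red) and all models (grey). Right, percent of each kind of model with an annotated end within 20 bases, a hexamer AATAAA or ATTAAA in the last 50 bases, and 6 A in a row in the last 20; bars carry exact 95% intervals, and members stand at 15.5%, 30.6% and 34.2%.

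The columns held their own markers, with 35 of 36 class markers highest in the column of their name. The Müller glia column was also the highest for all 6 microglial markers (1514 CPM summed there, 34.2 to 722 in the other columns), all 4 pigment epithelium markers (8808 CPM there, at most 60.2 elsewhere) and all 4 red blood cell globins (12344 CPM there, at most 2783 elsewhere). Both endothelial, both pericyte and both astrocyte markers in the table were highest there too, at 27.2, 253 and 82.8 CPM. Rod markers summed to 1270 CPM in Müller glia, 894 in cones, 371 in bipolar cells, 138 in amacrine cells and 0 in ganglion cells. Their part in the members placed in these columns was not tested.

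**Figure D4:**
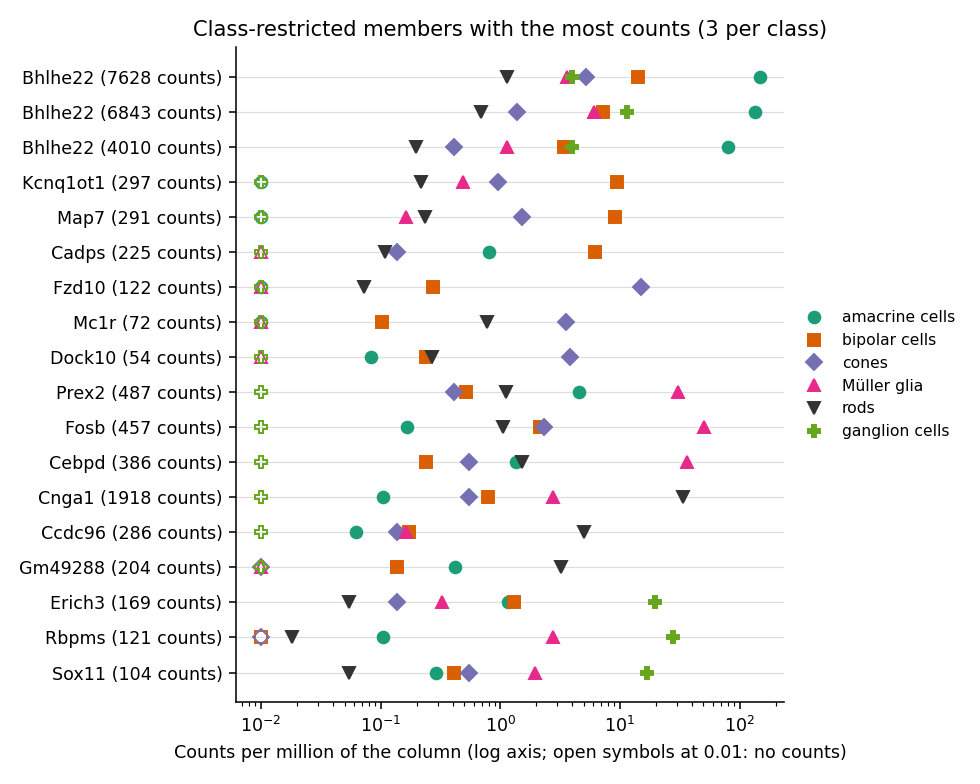
The 3 class-restricted members with the most counts for each class (rows), with the CPM of each column on a log axis; open symbols at 0.01 stand for no counts. The Bhlhe22 members lead with 80.3 to 147 in amacrine cells, and cone and bipolar members lie at 3.56 to 15.1.

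Among 32 retinal transcription factors, 5 had members: Bhlhe22, Mef2c, Sox2, Sox4 and Sox11, with 13 in all and 5 of the 13 restricted, beside 17.3% of members and 19.2% of all models, and 3 of the 5 are pieces of Bhlhe22. Bhlhe22, a basic helix-loop-helix factor of amacrine and bipolar subtypes, had 3, all in its UTRs. The 5′ UTR member (chromosome 3, 18054240 to 18054668) had 147 CPM in amacrine cells (143 to 150), 14.2 in bipolar cells, 5.2 in cones, 3.99 in ganglion cells, 3.59 in Müller glia and 1.15 in rods. The pair of 3′ UTR members had 135 (18056865 to 18057517) and 80.3 CPM (18056065 to 18056879) in amacrine cells and at most 11.4 in any other column. All 3 were restricted to amacrine cells, and 1 of the 3 reaches the annotated end, with the hexamer printed above.

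The Sox genes are single-exon genes of high-mobility-group factors. The Sox2 member (chromosome 3, 34650914 to 34652461) had 22 CPM in Müller glia, 2.34 in bipolar cells, 1.02 to 1.1 in amacrine cells, cones and rods, and no count in ganglion cells, and its 79.8% in Müller glia was just under the limit. Sox11 was highest in ganglion cells in both members, with 16.8 CPM (12.8 to 21.7) for the one in the 3′ UTR (chromosome 12, 27334592 to 27334993) and 3.13 for the other, on 104 and 25 counts. The 4 Sox4 members ranged from 78 to 471 counts and were highest in amacrine cells (2), ganglion cells (1) or bipolar cells (1). Of the 3 Mef2c members, on 33 to 65 counts, 2 were highest in Müller glia and 1 in amacrine cells.

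Immediate early genes are transcribed within minutes of a stimulus, tissue dissociation included. Of 17 listed, 5 had members: Fosb with 3, Ier5 with 2, and Jun, Junb and Ier2 with 1 each. All 8 were highest in Müller glia, as were 10.9% of members and 14.6% of all models with 10 counts or more, and 5 of the 8 were restricted to them, beside 2.79% of members and 3.91% of all models. Members of 1 gene are not independent, and 3 of the 5 are pieces of Fosb. The largest Fosb member starts upstream of the annotated start (chromosome 7, 19308949 to 19310208) and had 50.7 CPM in Müller glia (45.2 to 56.7), 2.33 in cones, 2.14 in bipolar cells, 1.06 in rods, 0.166 in amacrine cells and 0 in ganglion cells, on 457 counts. The 2 isoforms listed as Fosb had 34 counts and were also highest in Müller glia (2.28 CPM). The Jun member, in the 3′ UTR (chromosome 4, 95049041 to 95050246), had 31.1 CPM in Müller glia and 1.42 to 3.55 elsewhere, on 560 counts. The Junb member (chromosome 8, 84975738 to 84977032) had 18.9 CPM in Müller glia and the Ier2 member 10.1. The pair in Ier5 rests on few counts, with 1.47 and 1.63 CPM in Müller glia on 9 and 10 counts, and 1.06 and 0.684 CPM in amacrine cells on 51 and 33.

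Among other members restricted to Müller glia, those of Prex2, an exchange factor for Rac, and Cebpd, a bZIP transcription factor, had the most counts. The Prex2 member (chromosome 1, 10993304 to 10995458) had 30.8 CPM in Müller glia (26.6 to 35.5) and 4.52 in amacrine cells. Its 487 counts compare with 75 for the 3 isoforms listed as Prex2. The Cebpd member covers coding sequence and 3′ UTR from the annotated start on (chromosome 16, 15887286 to 15889566) and had 36.7 CPM in Müller glia (32 to 41.8) and at most 1.53 elsewhere.

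Of 26 photoreceptor genes, 1 had a member. It was Cnga1, the alpha subunit of the rod cyclic nucleotide-gated channel, with a 661-base member over 251 bases of 5′ UTR (chromosome 5, 72642092 to 72642752). It had 33.7 CPM in rods (32.2 to 35.3), 2.77 in Müller glia, 0.793 in bipolar cells, 0.547 in cones, 0.104 in amacrine cells and 0 in ganglion cells, on 1918 counts. The listed Cnga1 isoforms had 150 CPM in rods and the same highest class. Rod-restricted members followed in Ccdc96 (chromosome 5, 36484588 to 36487235; 276 of 286 counts in rods) and in the pseudogene Gm49288, which overlaps deposited exons of Ppp3cc, a calcineurin subunit (chromosome 14, 70235034 to 70238053; 180 of 204 counts in rods). None of 31 synapse genes had a member. The share of all genes that had a member is not given here. The numbers of genes with members in the gene lists are therefore not read as high or low.

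Cone-restricted members had few counts. Fzd10, a Wnt receptor encoded by a single exon, had a member over coding sequence and 3′ UTR up to the annotated end (chromosome 5, 128601795 to 128604093) with 15.1 CPM in cones (12.4 to 18.1), 0.276 in bipolar cells, 0.0722 in rods and no count in the other 3 columns, on 122 counts. A member of Mc1r, a melanocortin receptor gene (chromosome 8, 123410198 to 123410744), had 3.56 CPM in cones on 72 counts, although 43 of the 72 were in rods, whose column is deeper. The Dock10 member (chromosome 1, 80521964 to 80524679), had 3.83 CPM in cones on 54 counts.

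In ganglion cells, Rbpms, an RNA-binding protein used as their marker, had a member with 27.9 CPM (22.7 to 34.0) there, 2.77 in Müller glia and at most 0.104 elsewhere (chromosome 8, 33928140 to 33929563). It ends on a run of A, as printed above. The listed Rbpms isoforms had 33.3 CPM in ganglion cells and 3.1 in Müller glia, a like profile. The Erich3 member ends at an annotated end (chromosome 3, 154766915 to 154767789) and had 19.7 CPM in ganglion cells (15.3 to 24.9), while the listed Erich3 isoforms had 43 of 44 counts in amacrine cells and none in ganglion cells, where 3 counts would be 0.855 CPM.

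Of 16 long noncoding RNAs, 7 had members, 28 in all, of which 17 were highest in bipolar cells, beside 26% of members and 14.8% of all models, and 2 were restricted, beside 19.2% of all models. Kcnq1ot1 alone gave 14 of the 17, and outside it 3 of 13 were highest in bipolar cells. Kcnq1ot1, the imprinted antisense RNA of the Kcnq1 domain, had the most of any gene, with 15 members between 143217972 and 143296549 on chromosome 7 and no isoform under its Ensembl name. Summed, they had 147 CPM in bipolar cells, 36.3 in cones, 35.1 in amacrine cells, 26.4 in Müller glia and 21.5 in rods, and least, 9.4, in ganglion cells, on 7607 counts. The exception to a maximum in bipolar cells was the member at 143238033 to 143239514, with 5.29 CPM in amacrine cells and 4.27 in bipolar cells. The most 3′ member (143217972 to 143218492) was restricted to bipolar cells with 9.48 CPM (8.39 to 10.7) and no count in amacrine or ganglion cells. The member at the annotated start (143294240 to 143296549) had 13.9 CPM in bipolar cells and 4.56 in rods.

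The imprinted RNAs Rian and Mirg of the Dlk1-Dio3 domain were highest in ganglion cells: the Rian members had 5.41 and 9.4 CPM there and 5.26 and 3.01 in amacrine cells, and the Mirg member 5.13 and 2.05. The ganglion cell values rest on 19, 33 and 18 counts and the amacrine cell values on 254, 145 and 99. For the first Rian member the values are too close on 19 counts to tell which column is higher. Tug1 had 2 members, both highest in rods (10.4 and 7.05 CPM). Neat1, the scaffold of paraspeckles, had 4 on 20 to 533 counts, 3 of them highest in Müller glia. Peg13 had 2 members, at 226 and 102 counts, the first highest in cones (3.28 CPM) and the second in bipolar cells (1.1 CPM).

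Other genes held several members. Ube3a, an imprinted ubiquitin ligase gene, had 9 between 59276417 and 59286419 on chromosome 7, with 336 counts summed and from 0.489 CPM in Müller glia to 3.58 in bipolar cells, and Purb, a single-stranded nucleic acid binding protein, had 9 with 4001 counts. Of the 69 bipolar-restricted members, those with the most counts after the Kcnq1ot1 member were in Map7, a microtubule-associated protein (chromosome 10, 20171815 to 20172275; 9.17 CPM in bipolar cells and none in amacrine cells), and Cadps, a factor of dense-core vesicle release (chromosome 14, 12470159 to 12471573; 6.17 CPM). Of 36 RNA-binding protein genes, Tra2a and Ptbp2 had members, and the 4 of Ptbp2 had 35 to 123 counts.

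Members were also set beside the Ensembl gene whose deposited exons they overlap. Of 928 members with at least 10 counts, 280 (30.2%, 27.2 to 33.2%) had the same highest column as the summed isoforms of that gene, beside 40.1% of isoforms of Ensembl genes against the rest of their gene. With at least 100 counts it was 85 of 239 (35.6%, 29.5 to 42.0%), beside 43.3%. The intervals of these backgrounds (39.5 to 40.6% and 42.5 to 44.2%) lay above those of members. For single-exon Ensembl-named models against the rest of their gene the shares were 37.8% (32.6 to 43.2%) and 38.7% (30.7 to 47.3%), and these intervals overlapped those of members at both minimums.

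Ankrd28, Ccdc63, Sptan1 and Auts2 were among the genes with the largest differences. The Auts2 member (chromosome 5, 131533720 to 131534731) had 1.87 CPM in amacrine cells and 0.448 in bipolar cells, while the isoforms listed as Auts2 had 0.746 and 7.51. The Ccdc63 member (chromosome 5, 122137317 to 122138957) had 127 of 131 counts in rods, while the listed isoforms had 32 of 65 in bipolar cells. Members of Ankrd28 and Sptan1 were highest in ganglion cells at 6.55 and 3.99 CPM on 23 and 14 counts there, and the listed isoforms of both genes had 0 counts in that column.

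**Figure D5:**
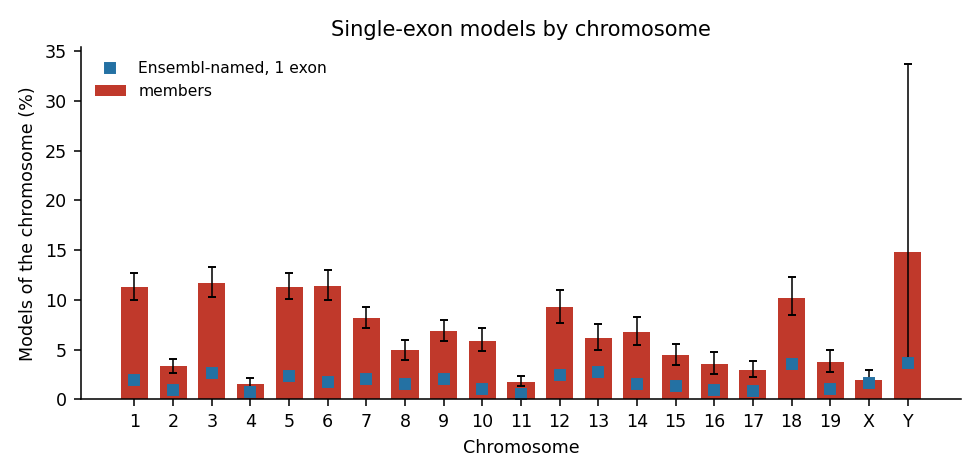
Members as a percent of all deposited models of each chromosome (bars, with exact 95% intervals) and single-exon Ensembl-named models (squares). Members range from 1.57% on chromosome 4 to 11.7% on chromosome 3 among chromosomes with over 1000 models.

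Members were unevenly spread over chromosomes. They were 11.7% of the 1822 models on chromosome 3 (10.3 to 13.3%), 11.4% on chromosome 6 and 11.3% on chromosomes 1 and 5, but 1.57% of the 2167 models on chromosome 4 (1.09 to 2.19%), 1.78% on chromosome 11 and 1.95% on X. Members of at least 100 counts followed a like range, from 0.354% on X and 0.508% on chromosome 4 to 3.29% on chromosome 6. Single-exon Ensembl-named models ranged from 0.497% on chromosome 11 to 3.54% on chromosome 18. These ranges are over chromosomes with over 1000 models and leave out Y, where 4 of 27 models were members, none of them with 100 counts, and 1 was a single-exon Ensembl-named model.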

How the data were processed

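The deposited counts are whole numbers for each isoform in 6 cell class columns, and the deposited models give FLAIR, which assembles isoforms out of long reads, in their source field, per the file contents and headers; the build mm10 (GRCm38) is from the submitters' processing notes. How cells were typed, reads collapsed or isoforms filtered is not given in the sources used here. The planned designs held, with each column as 1 sample and no test. Column totals were 3509890 (ganglion cells), 6133094 (Müller glia), 7307134 (cones), 29010038 (bipolar cells), 48248340 (amacrine cells) and 55437340 (rods), and 3 counts, the limit for a count of 0, were 0.0541 CPM in rods and 0.855 CPM in ganglion cells. CPM are counts scaled to a column total of 1000000.

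Models were compared with GENCODE M21 on the same strand, and sequence was read from M21 transcripts. Near-identical copies were sought with blastn 2.17.0 (megablast; 95% identity over 80% of a stretch of at least 200 bases). Scaling alternatives used edgeR 4.0.16 (trimmed mean of M-values) and medians of ratios, and equal depth was the mean of 20 seeded draws. Intervals are exact Clopper-Pearson or Poisson. The size rule and the intervals were tested on simulated data. For the size rule, limits on missed and false calls were set only for isoforms of 100 or more counts. Most members (72.4%) were under 100 counts.

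Members, gene lists, the restricted rule and the alternatives were chosen with earlier results of these data known. Named were the 10 members with the most counts, 3 restricted members for each class, 5 that differ most from their gene (1 of them is not reported here), 3 with the most counts and no deposited Ensembl exon, the 3 longest, the 2 genes with the most members (2 tied at 9, and 1 of them was named in full) and 3 members for each list; Purb, Amd2, Rbm8a2, Gm15920, Rian, Mirg, Tug1, Neat1, Peg13, Ier2, Ier5, Sox2, Sox4 and Mef2c were added after their values were seen.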

Additional observations from a re-analysis of the deposited data

Results flagged for a closer look

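Beside the members, 849 isoforms named by position had counts but no model, and so no known exon number. They held 19866 counts in all: 12463 in amacrine cells, 5404 in bipolar cells, 985 in Müller glia, 580 in ganglion cells, 434 in cones and 0 in rods. These data lie outside the comparisons above, and their counts exceed the 3 that a count of 0 allows in every column except rods. Their median total was 16 counts. Of 655 with at least 10 counts, 390 (59.5%) were restricted to 1 class, beside 27% of all isoforms of the table. Amacrine cells took 255 of the calls (38.9% of the isoforms tested, beside 10.3% in the table) and bipolar cells 83. The rod column, which takes part in the calls elsewhere, is at 0 here because the isoforms without a model are those without rod counts. Most isoforms tested in the table (33059 of 39072) had a model and so rod counts, so 27% and 10.3% are no like background. Models alone had 19.2% restricted and 3.01% in amacrine cells, so isoforms without a model as a whole lie above 27% and 10.3%. In all, 10536 of the 39072 isoforms tested in the table were restricted, and 6356 of the 33059 with a model. In amacrine cells these numbers were 4016 and 995. By these counts, isoforms without a model as a whole were restricted more often than the 655, in any class and in amacrine cells.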

How the results depend on the processing

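Of 96 comparisons with an alternative, 41 stayed within 1.5 times or the counting interval of the reported value and 55 moved; the cause was not tested where the alternative does not set it. The total of 365 class-restricted members was 213 with a minimum of 20 counts, 100 with 50, 560 with a share of 70%, 118 with 95% and 104 at equal depth, and from 354 to 368 under both scalings, without the ganglion cell column and without near-identical copies. With a minimum of 20 counts there were 56 in rods, 39 in Müller glia, 38 in bipolar cells and 5 in cones, and with 50 counts 26 in amacrine cells, 20 in rods, 19 in bipolar cells, 18 in Müller glia, 14 in ganglion cells and 3 in cones. A share of 70% gave 119 in bipolar cells, 108 in amacrine cells, 42 in ganglion cells and 32 in cones. A share of 95% gave 69 in rods, 18 in bipolar cells, 13 in amacrine cells, 9 in Müller glia, 6 in cones and 3 in ganglion cells. Equal depth gave 31 in Müller glia, 16 in bipolar cells, 15 in amacrine cells, 10 in rods and 5 in cones.

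With at least 5 counts, 524 members were seen in cones, 460 in Müller glia and 221 in ganglion cells, and at equal depth 1291 in rods. Without the 10 largest members the share of counts was 0.160% in ganglion cells, 0.192% in Müller glia, 0.248% in cones, 0.300% in amacrine cells, 0.311% in rods and 0.331% in bipolar cells. Without near-identical copies, an alternative chosen after seeing the data, it was 0.318%, 0.342%, 0.484%, 0.508%, 0.562% and 0.551% in that order. Overlap with a deposited Ensembl-named model was 7.88% when it had to cover 50% of the member, 69.7% over gene spans and 100% with M21 exons. The highest class equalled that of the gene in 35.6% with 100 counts. A hexamer lay in the last 100 bases of 35.3%, and AATAAA alone in the last 50 of 24.2%. Runs of A were chosen as a measure after seeing the data: 41.1% had at least 12 A in the last 20 bases, and 45.7% of members with 100 counts or more had a run of 6. After the end, 23 members had 6 A in a row and 0 had 14 A, though no model of any kind had more than 11.

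No paired analysis was possible because each class is a single pooled sum without replicate numbers, and leaving out a library was not run for the same reason. Depth limits the ganglion cell column most, and members under 100 counts (72.4%) have wide counting intervals.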

Other observations

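Among the genes with the most members, profiles over the columns differed. The 6 members of Adgrb3, an adhesion receptor of synapses, summed to 23.2 CPM in amacrine cells, 14.3 in bipolar cells and at most 1.8 in the other columns, on 1653 counts. The 7 members of Fry summed to 7.79 CPM in bipolar cells, 4.79 in amacrine cells and 0.361 in rods. The 6 members of Slc4a7, a sodium bicarbonate cotransporter, summed to 9.07 CPM in rods, 7.39 in cones, 5.98 in ganglion cells and 0.187 in amacrine cells, and had no count in Müller glia. The 6 members of Dtna, the dystrophin partner dystrobrevin alpha, summed to 12 CPM in amacrine cells, 11.1 in Müller glia and 0.541 in rods. These genes were chosen after their values were seen.

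Members that open on T were rare. At least 6 T in a row lay in the first 20 bases of 15 of 1909 members with readable sequence (0.786%). The share was 0.465% in single-exon Ensembl-named models (2 of 430) and 0.147% in spliced Ensembl-named models. By contrast, 34.2% of members closed on 6 A in the last 20.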
